A study of Mus musculus with 6 samples.

Results

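Antibiotic-treated mice and mice with an intact flora were compared at the second day of Dextran sodium sulfate (DSS), a sulfated polysaccharide that injures the colonic epithelium when given in drinking water. The pGF (pseudo germ-free) library came from wild-type mice that took antibiotics for 4 weeks and then antibiotics together with DSS for 2 days. The SPF library came from wild-type mice, held under specific-pathogen-free conditions, that took DSS for 2 days without antibiotics. Antibiotics went on alongside DSS in the pGF mice, so loss of bacteria and a direct action of the drugs cannot be told apart. Age, sex and the number of mice behind each library were not given in the sources used here. Colonic tissue was stripped of epithelium with EDTA and digested, CD45+ cells were sorted, and their RNA was counted by 5′ droplet sequencing in unique molecular identifiers (UMIs). The members were the barcodes of these 2 libraries in which 200 or more genes were detected and no more than 10% of UMIs came from mitochondrially encoded genes. They numbered 10485 of the 31304 barcodes that met the same limits in all 6 libraries of the series, 7488 in the pGF library and 2997 in the SPF library. With 1 library on each side there was no replicate and no test of the condition. Intervals given below cover counting error only.

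Gut bacteria keep the colonic immune system in a state of controlled activity. Their products reach macrophages, dendritic cells and epithelial cells through pattern-recognition receptors, and these cells respond with antimicrobial proteins, cytokines and type I interferon. Blood monocytes renew the macrophages of the lamina propria, intraepithelial T cells patrol the epithelial layer, and group 2 innate lymphoid cells (ILC2) answer epithelial alarm signals with type 2 cytokines and growth factors for repair. Antibiotic depletion of the flora is widely used in mice to ask which of these activities depend on bacteria.

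The libraries differed in quality before any cell type was considered. The pGF library held 9288 deposited barcodes with 52772901 UMIs, of which 80.6% were kept, and the SPF library held 7753 barcodes with 37169685 UMIs, of which 38.7% were kept. More than 10% of UMIs were mitochondrial in 19.3% of pGF barcodes, against 61.1% of SPF barcodes, and in 6.41% to 28.1% of barcodes in the libraries of days 0 and 7. Since each group is 1 library, nothing could be recomputed without it. Epithelial-gated barcodes made up 55.5% of the barcodes over the limit in pGF and 40.9% in SPF, and barcodes that entered no class made up 39.2% in pGF and 56.0% in SPF. Kept barcodes had a median of 3201 UMIs and 1430 genes in pGF, against 5528 UMIs and 1913 genes in SPF. Both libraries carried 114 barcode sequences in common, of which 31 were kept on both sides and 7 entered the same class.

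Barcodes were assigned to a cell class when at least 3 UMIs from at least 2 genes of its marker panel were present and the other panels summed to no more than the panel's own UMIs divided by 3. The 5 classes described here were T cells by CD3 and receptor constant genes, ILC2 by Gata3, Il1rl1 and related receptors, macrophages by the complement C1q chains, Csf1r and related genes, dendritic cells by Flt3, Zbtb46 and related genes, and epithelial cells by Epcam, keratins and claudins. Together these 5 classes held 7472 barcodes. No class was found for 18.4% of the kept pGF barcodes and 16.8% of the kept SPF barcodes. Epithelial-gated barcodes carried little Ptprc, the gene for CD45, at 32.1 CPM (UMIs of a gene scaled to a common total) in pGF and 17.7 CPM in SPF, against 1305 CPM in pGF T cells and 1321 CPM in SPF T cells. They were thus present in a CD45 sort with little of the transcript for the sorted protein. Fewer cells of a type in the tissue, fewer cells recovered and fewer cells kept cannot be told apart in these shares.

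T cells filled most of the pGF library, and macrophages, dendritic cells, plasma cells and stromal cells were scarce in it. T cells numbered 4336 of 7488 barcodes in pGF, or 57.9% (exact binomial 95% interval 56.8% to 59.0%), against 490 of 2997 in SPF, or 16.3% (15.0% to 17.7%). That is a 3.54-fold higher share in pGF, or 1.82 on the log2 scale (interval of the ratio 1.69 to 1.96). Macrophages, which engulf bacteria and dying cells, were 130 barcodes in pGF (1.74%), against 278 in SPF (9.28%), with a log2 ratio of -2.42 (-2.73 to -2.11). Dendritic cells, which carry antigen to T cells, were 44 barcodes in pGF (0.588%), against 67 in SPF (2.24%), with a log2 ratio of -1.93 (-2.51 to -1.36). Epithelial cells were 1179 barcodes in pGF (15.7%), against 804 in SPF (26.8%), with a log2 ratio of -0.77 (-0.90 to -0.64). ILC2 were 99 barcodes in pGF (1.32%), against 45 in SPF (1.50%), a log2 ratio of -0.18 whose interval spanned 0 (-0.71 to 0.36).

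Outside the described classes, plasma cells, the antibody-secreting cells of the mucosa, were 0.948% of pGF barcodes, against 10.2% of SPF barcodes. Stromal cells, marked by collagen and smooth muscle genes and not expected in a CD45 sort, were 19 barcodes in pGF, against 430 in SPF. Natural killer cells were 1.31% of barcodes in pGF and 0.334% in SPF. Counted among gated immune barcodes alone, 4899 in pGF and 1244 in SPF, T cells were 88.5% in pGF, against 39.4% in SPF, and macrophages 2.65% in pGF, against 22.3% in SPF. The T cell excess in pGF was therefore smaller on that denominator, at 1.17 on the log2 scale, and the macrophage deficit larger, at -3.07. ILC2 were 2.02% of gated immune barcodes in pGF, against 3.62% in SPF, a log2 ratio of -0.84 whose interval lay below 0 (-1.36 to -0.30). Without the mitochondrial limit the log2 ratio was 2.26 for T cells, -2.08 for macrophages and -0.98 for epithelial cells, while that of ILC2 turned positive at 0.25.

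The other days place these shares. At day 0, T cells were 17.2% of kept barcodes in pGF and 14.9% in SPF, and the macrophage log2 ratio was -0.10. At day 7, T cells were 61.1% in pGF, against 29.3% in SPF, and macrophages 3.28% in pGF, against 16.8% in SPF. Each of these is again 1 library a side, and the day-to-day difference was not tested.

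**Figure D1:**
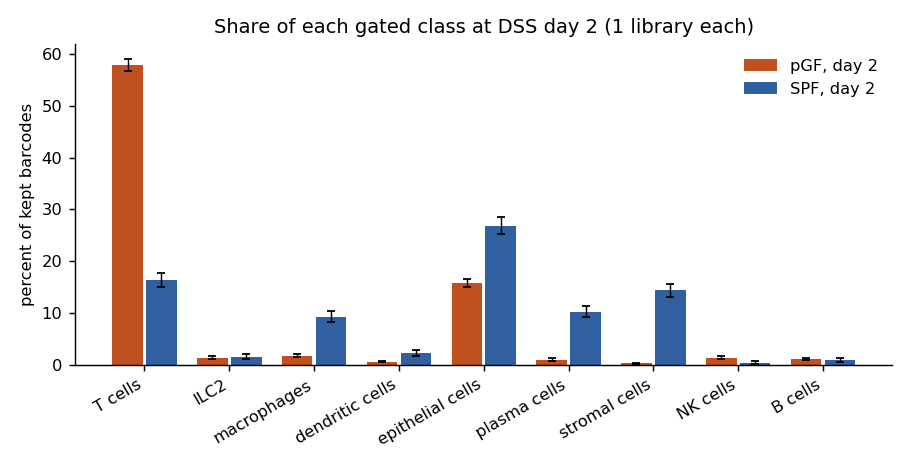
Percent of kept barcodes (y axis) in each gated class (x axis) for the pGF library (left bar of each pair) and the SPF library (right bar) at DSS day 2, with exact 95% binomial intervals for counting error. T cells reach 57.9% in pGF, against 16.3% in SPF, while macrophages, dendritic cells, plasma cells and stromal cells are lower in pGF.

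Within T cells, most genes of the naive and lymph-node homing list were higher in pGF, with 3 heat-shock genes, and most cell-cycle genes and 3 granzymes were lower. UMIs were summed over the cells of a class in each library and scaled to CPM, and differences are given as log2 of (CPM + 10), pGF over SPF. A gene was compared when it had at least 50 CPM and 20 UMIs in the library where it was higher, and it was called higher or lower at a difference of 2-fold or more. Of 3220 genes so compared in T cells, 47 (1.46%) were higher in pGF and 52 (1.61%) were lower. T cells had similar depth on both sides, with a median of 3160 UMIs in pGF and 3289.5 in SPF, and a median mitochondrial share of 2.23% in pGF and 2.79% in SPF. For gene lists, members needed only 10 CPM, and the background at that level was 0.851% of 7871 genes higher and 1.61% lower, with a median log2 difference of -0.04.

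In all, 7 of the 8 naive and lymph-node homing genes were higher in pGF T cells and none was lower, with a list median of 1.29. With every cell given equal weight, 5 of 8 were higher. Il7r, the receptor chain for the survival cytokine of resting T cells, stood at 115 CPM in pGF, against 21.3 CPM in SPF, a log2 difference of 1.99. S1pr1, which lets lymphocytes leave tissue towards lymph and blood, stood at 46.3 CPM in pGF, against 5.32 CPM in SPF. The transcription factor Klf2, which controls S1pr1, stood at 253 CPM in pGF, against 94.7 CPM in SPF. These are genes of circulating rather than settled T cells. Lef1 (log2 difference 1.44), the lymph-node chemokine receptor Ccr7 (1.14) and the chromatin organiser Satb1 (1.14) were also higher. Tcf7, a factor of naive and memory T cells, was the member under 2-fold, at 289 CPM in pGF, against 178 CPM in SPF. In T cells thinned to 1000 UMIs each, S1pr1 was detected in 3.76% of cells in pGF, against 0.830% in SPF, and Ccr7 in 2.66% in pGF, against 1.04% in SPF.

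Among the 10 genes furthest higher in pGF T cells were other genes of resting and recirculating cells. Ms4a4b, a surface protein of naive and memory T cells, stood at 235 CPM in pGF, against 50.6 CPM in SPF, the largest difference among them at 2.02. Klf3, a relative of Klf2, stood at 178 CPM in pGF, against 44.2 CPM in SPF, and Cd2, an adhesion receptor of T cells, at 110 CPM in pGF, against 25.5 CPM in SPF. A further set belongs to stress and recent stimulation. Nr4a3, an orphan nuclear receptor switched on within hours of receptor signalling, was found in 2439 of 4336 T cells in pGF, against 133 of 490 in SPF, at 543 CPM in pGF, against 159 CPM in SPF (CPM ratio 3.41, interval 3.04 to 3.85). The heat-shock genes Hspa1a, Hspa1b and Dnajb1 stood 1.67, 1.57 and 1.49 higher on the log2 scale. Hspa1a and Hspa1b are near-identical copies, so the division of reads between them is uncertain. Cebpb (1.60), Gramd3 (1.58) and Nabp1 (1.48) completed the 10.

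A total of 3 of 17 immediate-early and heat-shock genes were called higher in T cells, those same 3 heat-shock genes, and none was lower. The list median was 0.55, against -0.04 over all genes. Under trimmed-mean (TMM) scaling 5 of the 17 were higher, and among T cells with a Cd8a UMI 4 were. The immediate-early transcription factors respond to tissue dissociation as well as to stimulation. None was called in the main comparison: Fos differed by 0.55, Jun by -0.13 and Fosb, the lowest of the list, by -0.47. Of 11 measured activation and checkpoint genes, 3 were higher and none lower. They were Nr4a3, Nr4a1 at 588 CPM in pGF, against 241 CPM in SPF, and the inhibitory receptor Pdcd1 at 24.2 CPM in pGF, against 3.73 CPM in SPF. Lag3, another inhibitory receptor, went the other way without reaching 2-fold, at -0.60.

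Cell-cycle genes stood in the other direction. Of 17 measured members, 15 were lower in pGF T cells and none was higher, with a median log2 difference of -1.51. With every cell given equal weight, 10 of 16 were lower and none higher. Mki67, a protein of dividing cells, stood at 14.5 CPM in pGF, against 127 CPM in SPF (CPM ratio 0.114, interval 0.0943 to 0.138), and was present in 70 of 4336 cells in pGF and 42 of 490 in SPF. Top2a, the topoisomerase that untangles replicated DNA, stood at 19.1 CPM in pGF, against 159 CPM in SPF. The replication-associated factor Pclaf stood at 17.3 CPM in pGF, against 154 CPM in SPF. Uhrf1, Stmn1, Mcm3 and Birc5, which serve DNA methylation upkeep, microtubule dynamics, replication licensing and chromosome segregation, were 2.37, 2.25, 1.84 and 1.75 lower on the log2 scale. Pcna (-0.85), of replication and repair, and Tyms (-0.87), of nucleotide synthesis, stayed under 2-fold. After thinning, Mki67 was detected in 0.588% of pGF T cells, against 4.36% of SPF T cells. In epithelial cells, a dividing tissue, it was detected in 3.97% in pGF and 3.27% in SPF.

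The granzymes Gzma, Gzmb and Gzmc were lower in pGF T cells, and the other genes of the killing list were not called, Gzmk (0.18) among them. Gzmb, the serine protease that triggers death of target cells, stood at 519 CPM in pGF, against 2071 CPM in SPF (CPM ratio 0.251, interval 0.241 to 0.261). Gzma differed by -1.22 on the log2 scale, and Gzmc, at 13.4 CPM in pGF, against 55.3 CPM in SPF, by -1.48. These 3 were the called members among 10 cytotoxic genes, whose median was -0.02. Prf1, the pore-forming perforin, stood at 20.8 CPM in pGF, against 23.4 CPM in SPF, and the granule protein Nkg7 differed by -0.05. Thinned detection gave Gzma in 22.7% of T cells in pGF, against 45.6% in SPF, and Gzmb in 16.7% in pGF, against 46.3% in SPF. Epithelial cells, which should lack these proteases, showed Gzma in 2.98% of cells in pGF and 1.05% in SPF.

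Detection of subset genes differed between the T cell pools as well. The share of a subset and the level per cell cannot be told apart in detection. Cd8a, a coreceptor of killer and intraepithelial T cells, was detected in 27.7% of thinned pGF T cells, against 41.5% of SPF T cells, with a background in epithelial cells of 0.993% in pGF and 0.262% in SPF. Cd8b1, the gene of the other CD8 chain, went the other way. It was detected in 3.95% of thinned pGF T cells (interval 3.39% to 4.58%), against 2.28% of SPF T cells (1.14% to 4.05%). Trdc, the constant gene of the γδ receptor and itself part of the T panel, was detected in 16.4% of pGF T cells, against 27.2% of SPF T cells. Cd4, the coreceptor of helper cells, was detected in 58 of 4252 thinned pGF T cells and in 0 of 482 thinned SPF T cells, and without thinning in 129 of 4336 pGF T cells and 4 of 490 SPF T cells. Foxp3, the factor of regulatory T cells, was detected without thinning in 22 of 4336 pGF T cells (0.507%) and 2 of 490 SPF T cells (0.408%), so no difference was detectable at this depth. Among T cells with a Cd8a UMI alone, 1967 in pGF and 301 in SPF, 15 cell-cycle genes were lower and 7 naive genes higher. Of the 10 cytotoxic genes, 2 were lower in these cells and none was higher, with a median of 0.07.

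Other T cell programmes had few calls each, against a background of 0.851% of genes higher and 1.61% lower. Of 14 intraepithelial and tissue-residence genes 1 was called, the gut-homing receptor Ccr9 at 61.1 CPM in pGF, against 141 CPM in SPF, and Itgae, the integrin that holds T cells to epithelium, differed by -0.06. None of 6 measured helper cytokines passed 2-fold, and Ifng stood at 61.5 CPM in pGF, against 50.0 CPM in SPF. Among 9 regulatory T cell genes Tnfrsf9 and Ikzf4 were lower and none was higher. With TMM scaling, a trimmed-mean normalisation, the calls of Ccr9, Tnfrsf9 and Ikzf4 were lost, and the whole-class count became 65 higher and 45 lower. Among 5 measured type 17 genes the transcription factor Maf was higher, at 29.9 CPM in pGF, against 9.58 CPM in SPF. No member of the MHC class I, glycolysis, oxidative phosphorylation or NF-kB lists was called. None of 6 measured MHC class II genes was called either, with a median of -0.57. Transcripts of other cell types were present in both T cell pools: the summed epithelial panel stood at 312 CPM in pGF, against 307 CPM in SPF, the colonocyte enzyme Car1 at 133 CPM in pGF, against 54.3 CPM in SPF, and the plasma cell transcript Igha at 154 CPM in pGF, against 435 CPM in SPF. Their part in the T cell results was not tested.

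**Figure D2:**
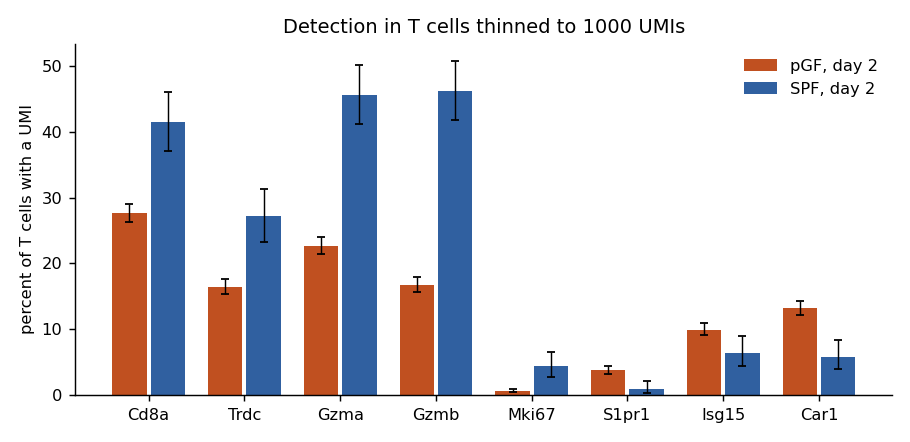
Percent of T-gated cells with at least 1 UMI of each gene (y axis) after thinning every cell to 1000 UMIs, in pGF (left bars, 4252 cells) and SPF (right bars, 482 cells) at DSS day 2, with exact 95% binomial intervals. Cd8a, Trdc, Gzma, Gzmb and Mki67 are detected in fewer pGF than SPF cells, and S1pr1, Isg15 and the epithelial transcript Car1 in more.

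At day 7, each of the 10 genes furthest higher in T cells at day 2 was higher in pGF again, and each of the 10 furthest lower was lower, 7 of each by 2-fold or more. At day 0 the day 2 direction was shared by 5 of the higher genes and 2 of the lower genes. Day 0 had 220 T cells in pGF and 352 in SPF, and day 7 had 3999 in pGF and 3116 in SPF. Gzmb was already lower in pGF at day 0, by -1.03, and differed by -2.25 at day 7. Nr4a3 differed by -0.21 at day 0 and by 3.04 at day 7.

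Macrophages of pGF mice, though few, had higher levels of 8 of 24 interferon response genes and lower levels of 9 of 13 monocyte recruitment genes, and Vegfa and the receptors Cd163 and Mrc1 were lower. Of 3078 genes compared, 83 (2.7%) were higher in pGF and 81 (2.63%) lower. At the 10 CPM level of the gene lists, 2.15% of 5822 genes were higher and 2.42% lower, with a median of -0.12. Median depth was 4376.5 UMIs per macrophage in pGF and 4278 in SPF. Mitochondrial share had a median of 1.63% in pGF and 3.01% in SPF, and 3.70% of macrophage-gated barcodes in pGF had been over the mitochondrial limit, against 14.7% in SPF.

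In all, 8 of 24 measured interferon response genes were higher in pGF macrophages and none was lower, with a median of 0.56. Isg15, a ubiquitin-like protein made in response to interferon, stood at 672 CPM in pGF, against 106 CPM in SPF, a CPM ratio of 6.33 (interval 5.24 to 7.68). It was present in 68 of 130 macrophages in pGF, against 73 of 278 in SPF. Thinned to 1000 UMIs, detection was 25.0% in pGF and 8.49% in SPF. The antiviral Ifit family, several of which bind foreign RNA, was higher too: Ifit2 at 106 CPM in pGF, against 12.5 CPM in SPF, Ifit3 at 62.1 CPM in pGF, against 6.64 CPM in SPF, and Ifit1 at 53.6 CPM in pGF, against 12.5 CPM in SPF. Usp18, which removes Isg15 from proteins, differed by 1.22. The transcription factors Irf7 and Irf1 differed by 1.17 and 1.10, and Oasl2, an RNA-sensing antiviral protein, by 1.13. Gbp2, a target of interferon gamma, differed by -0.39, so members of the list differed among themselves.

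The promoters of the interferon genes that stood higher were examined for the element bound by interferon-activated transcription factors, GAAA followed by any 2 bases and GAAA again, on either strand in the 250 bases before the start. Upstream sequences come from RefSeq on GRCm38.p6, whose coordinates are those of mm10, the build named in the submitters' processing notes. It was present in 14 of the 21 list genes with a promoter in the table, and in 2.98% of all 32851 promoters of that length. Among the 8 genes higher in macrophages, 7 had a promoter in the table and Isg15, Ifit1 and Ifit3 held a match. Their promoters are shown because they carry the element, in capitals. Isg15 lies on the minus strand at chr4:156200819-156201068 and has 3 overlapping matches. Ifit1 lies on the plus strand at chr19:34640639-34640888 and Ifit3 on the plus strand at chr19:34583279-34583528, each with 2 matches on the opposite strand. All sequences read 5′ to 3′ along the gene and end at the base before the start.
Isg15: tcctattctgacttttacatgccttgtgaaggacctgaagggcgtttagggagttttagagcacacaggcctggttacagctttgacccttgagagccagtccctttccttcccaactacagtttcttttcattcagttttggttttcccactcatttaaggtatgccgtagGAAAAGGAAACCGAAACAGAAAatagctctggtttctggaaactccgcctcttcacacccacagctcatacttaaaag
Ifit1: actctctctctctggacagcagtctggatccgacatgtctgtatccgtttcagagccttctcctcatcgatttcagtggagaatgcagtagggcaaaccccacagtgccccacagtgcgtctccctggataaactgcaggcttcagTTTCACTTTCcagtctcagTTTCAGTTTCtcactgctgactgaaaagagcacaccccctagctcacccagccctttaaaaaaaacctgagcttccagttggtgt
Ifit3: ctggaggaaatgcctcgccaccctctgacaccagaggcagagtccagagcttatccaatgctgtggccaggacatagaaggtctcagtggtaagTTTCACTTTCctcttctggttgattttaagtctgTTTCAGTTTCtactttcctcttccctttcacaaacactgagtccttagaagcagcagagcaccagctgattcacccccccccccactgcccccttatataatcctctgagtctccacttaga
In Isg15 the matches ran together from 78 to 57 bases before the start. In Ifit1 they lay 104 to 95 and 85 to 76 bases before the start, and in Ifit3 156 to 147 and 122 to 113 bases before it. A match describes the letters of the window and not binding.

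Recruitment and vessel genes gave the lower side. Of 13 monocyte recruitment genes 9 were lower in pGF macrophages, none was higher and the median was -1.19. Chil3, a lectin of monocytes and alternatively activated macrophages, stood at 22.6 CPM in pGF, against 150 CPM in SPF. Plac8, abundant in fresh monocytes, stood at 234 CPM in pGF, against 696 CPM in SPF, and the monocyte surface marker Ly6c2 at 119 CPM in pGF, against 283 CPM in SPF. A pair of hallmark genes did not follow: the recruitment receptor Ccr2 stood at 287 CPM in pGF, against 305 CPM in SPF, and lysozyme Lyz2 differed by 0.10. Thbs1, a secreted matrix glycoprotein that restrains vessel growth, stood at 390 CPM in pGF, against 1639 CPM in SPF (CPM ratio 0.238, interval 0.209 to 0.270), in 24 cells in pGF and 148 in SPF.

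Not every cell in the macrophage gate carried C1q. Macrophages with 3 or more UMIs of the C1q chains, a mark of settled tissue macrophages, were 118 of 130 in pGF and 185 of 278 in SPF. Among these the monocyte list had 8 measured members, 1 lower, with a median of -0.22, and the calls of Chil3 (-0.28) and Thbs1 (-0.77) were lost. The interferon list had 10 members higher and none lower there, with a median of 0.63. C1qa itself, a gate gene, stood at 3018 CPM in pGF, against 1847 CPM in SPF over all macrophages.

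Vegfa, the main growth factor for blood vessels, stood at 22.6 CPM in pGF macrophages, against 188 CPM in SPF (CPM ratio 0.120, interval 0.0676 to 0.199), and was found in 8 cells in pGF, against 85 in SPF. Emp1, a small membrane protein, was the furthest lower of the genes named by the rule, at 19.8 CPM in pGF, against 266 CPM in SPF, in 10 cells in pGF and 110 in SPF. With Thbs1, which was also on the monocyte list, they were the 3 lower members of 13 measured repair and angiogenesis genes. This list, like the other gene lists here, was chosen with earlier results of these data known, so such counts are descriptions only. A single member was higher, the epidermal growth factor receptor ligand Areg, at 198 CPM in pGF, against 44.3 CPM in SPF. Areg was found in 11 of 130 macrophages in pGF (8.46%) and 24 of 278 in SPF (8.63%). The share of cells with Areg was thus near equal, unlike its CPM. Scavenger and resident receptors were lower among 18 homeostatic genes, of which 4 were called: Cd163, the haemoglobin receptor, at 18.4 CPM in pGF, against 102 CPM in SPF, Mrc1, the mannose receptor, at 346 CPM in pGF, against 825 CPM in SPF, the folate receptor Folr2 (-1.36) and Lyve1 (-2.37). Lyve1 came from 2 cells in pGF and 21 in SPF. Cd163 and Lyve1, both among the 10 genes furthest lower, were higher in pGF on the other days. Cd163 differed by 0.70 at day 0 and 1.98 at day 7, and Lyve1 by 0.58 and 1.66. The fractalkine receptor Cx3cr1 (-0.18) and the anti-inflammatory cytokine Il10 (-0.48) were not called, and Hes1, a target of Notch, was higher at 1.58. The G-protein-coupled receptor Gpr35, a sensor of tryptophan metabolites, was found in 3 macrophages in pGF and 61 in SPF, at 5.65 CPM in pGF, against 59.8 CPM in SPF.

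Among inflammatory cytokines and chemokines, 5 of 18 measured members were higher in pGF macrophages and 1 lower, with a median of 0.31. The higher ones were the chemokine Ccl5 at 947 CPM in pGF, against 231 CPM in SPF, Tnf at 551 CPM in pGF, against 186 CPM in SPF, Il12b (log2 difference 1.32, in 6 cells in pGF and 4 in SPF), and the interferon-induced chemokines Cxcl9 (1.25) and Cxcl10 (1.21), which draw activated T cells. The neutrophil chemokine Cxcl3 was lower, with 1 UMI in pGF and 82 in SPF (CPM ratio 0.0233, interval 0.000584 to 0.134). Il1b, the central cytokine of inflammation, stood at 0.23 and was not called. With every cell given equal weight, 5 of 18 members of this list were higher and 3 lower. Among macrophages with 3 or more C1q UMIs, 5 of 16 were higher and 2 lower. Il22ra2, a soluble antagonist of the barrier cytokine Il22, was the furthest higher gene at 162 CPM in pGF, against 3.69 CPM in SPF, in 4 cells in pGF and 3 in SPF. Cfb, a complement protein, stood at 72.0 CPM in pGF, against 5.16 CPM in SPF, in 14 cells in pGF and 7 in SPF. Dusp2 (1.74) and Phlda1 (1.66), induced by stimulation, the meiosis gene Ccnb1ip1 (2.30), the histone gene Hist1h2bc (1.64) and Cst7 (2.14), with 55.3% of its pGF UMIs in 1 cell, were the other named genes, and on the lower side S100a9 (-1.70, in 1 cell a side) and Uck2, with 3 UMIs in pGF and 71 in SPF (CPM ratio 0.0809, interval 0.0163 to 0.246).

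Transcripts of other cell types differed between the macrophage pools. Igha stood at 60.7 CPM in pGF macrophages, against 12252 CPM in SPF, and the 6 genes of the T panel summed to 394 CPM in pGF, against 115 CPM in SPF, none of them at 0. The plasma cell panel summed to 2.82 CPM in pGF, against 64.2 CPM in SPF. Ccl5, which T cells also make, moved in the same direction as the T panel. Isg15 also stood higher in T cells, at 142 CPM in pGF, against 54.3 CPM in SPF, where it was the 1 call among 20 measured interferon genes. With antigen receptor, immunoglobulin and mitochondrial genes left out of the total, 72 genes were higher and 104 lower in macrophages. Higher genes were then 40.9% of those called, against 50.6% in the main comparison. That setting changes only the scaling, and the part of T cell and plasma cell RNA in the macrophage results was not tested.

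In dendritic cells, which were few, 5 of 10 interferon response genes were higher in pGF, and 3 of 9 type 2 dendritic genes were lower. With 44 cells in pGF and 67 in SPF, 112 of 2955 genes (3.79%) were higher and 155 (5.25%) lower. At the list level 3.69% of 3687 genes were higher and 5.15% lower, with a median of -0.08. Median depth was 9702.5 UMIs in pGF and 8153 in SPF. Isg15 stood at 342 CPM in pGF, against 25.7 CPM in SPF (CPM ratio 13.3, interval 7.69 to 24.8), and was found in 16 cells in pGF and 8 in SPF. A total of 5 of 10 measured interferon genes were higher and none lower, with a median of 0.95: Isg15, Usp18 (1.72), Irf1 (1.20), Ifit1 and Oasl1. The last pair had 1 and 3 UMIs in SPF, with CPM ratios of 24.3 for Ifit1 (interval 3.90 to 1003) and 9.62 for Oasl1 (2.94 to 49.8). The promoters printed above for Isg15 and Ifit1 belong to this list too.

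Cxcl10 and Cxcl9 were among the 10 genes furthest higher in dendritic cells. Cxcl10 stood at 189 CPM in pGF, against 14.7 CPM in SPF, in 8 cells in pGF and 4 in SPF, and Cxcl9 at 165 CPM in pGF, against 14.7 CPM in SPF, in 11 cells in pGF and 5 in SPF. With Tnf, at 134 CPM in pGF, against 38.6 CPM in SPF, they were the 3 called of 9 measured cytokine genes. With every cell given equal weight, 2 of 8 measured cytokine genes were higher and 1 lower, with a median of 0.37 in place of 0.66. A further 4 of the 10 were histone genes: Hist1h2ac with 43 UMIs in pGF and 1 in SPF (CPM ratio 49.7, interval 8.45 to 2007), and Hist1h3d, Hist4h4 and Hist1h4k with 32, 32 and 24 UMIs in pGF and none in SPF. Against the limit of 3 UMIs that a count of 0 allows in SPF, the pGF CPM of these last came to at least 12.3-fold, 12.3-fold and 9.24-fold, and the exact interval of the CPM ratio, which also covers error in the pGF count, started at 9.45, 9.45 and 6.95. Each was found in 5 to 9 pGF cells. Ccnb1ip1, with 27 UMIs in pGF and none in SPF, came to at least 10.4-fold, with an exact interval from 7.89. Gclc, of glutathione synthesis, Zmynd15, Hist1h2ac and Hist4h4 drew 68.8%, 63.9%, 58.1% and 56.2% of their pGF UMIs from 1 cell.

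The genes furthest lower in dendritic cells had varied roles. Ifitm1, an interferon-induced membrane protein also high in monocyte-derived cells, stood at 38.2 CPM in pGF, against 601 CPM in SPF, and Wfdc17, a secreted protease inhibitor of myeloid cells, at 38.2 CPM in pGF, against 546 CPM in SPF. Ifitm2 stood at 233 CPM in pGF, against 1372 CPM in SPF (CPM ratio 0.170, interval 0.138 to 0.208), in 17 cells in pGF and 59 in SPF. These Ifitm genes were not on the interferon list and stood opposite to Isg15. Ptgs2, which makes prostaglandins, Dab2, an endocytic adaptor, and the chemokine Ccl9 differed by -2.70, -2.66 and -2.08, and the chromatin demethylase Kdm7a by -1.89. Cd209d, Il17ra and Mcemp1 had 2 UMIs each in pGF, with CPM ratios of 0.0563 (0.00660 to 0.217), 0.0825 (0.00952 to 0.327) and 0.0825 (0.00952 to 0.327).

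A total of 3 of 9 measured type 2 dendritic genes were lower and none higher: the lectins Mgl2, at 84.9 CPM in pGF, against 316 CPM in SPF, and Clec10a (-1.34), and the integrin Itgam (-1.38). Of 10 type 1 dendritic genes, those of the cross-presenting subset, only Cxcl9 was called, and Irf8 differed by 0.37 and Batf3 by 0.67. Among the gate genes, Cd209a, of type 2 cells, stood at 221 CPM in pGF, against 522 CPM in SPF, and Xcr1 and Clec9a, of type 1 cells, at 225 and 229 CPM in pGF, against 184 and 231 CPM in SPF. The balance of subsets and the level within a subset cannot be told apart in these sums. A total of 2 of 11 measured maturation genes were higher, the chemokine Ccl17 (1.08) and Marcksl1 (1.06), with a median of 0.33. Under equal weight per cell neither was called and the list median was -0.14. Of 9 MHC class II genes the protease Ctss was lower at -1.13. The macrophage panel summed to 125 CPM in pGF dendritic cells and 143 CPM in SPF dendritic cells, and all neutrophil panel genes were at 0 on both sides.

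ILC2 gave few counts, and the low end of the comparison was uneven. Their pooled UMIs were 290180 in pGF and 130424 in SPF, so the 20 UMIs a gene needed came to 153 CPM in SPF but less in pGF. Of 1499 genes, 133 (8.87%) were higher in pGF and 30 (2%) lower, with a median of 0.20. At the level that 20 UMIs reach in both libraries, 857 genes were left, of which 25 were higher and 30 lower, with a median of -0.05. The excess of higher calls thus came with that unequal floor. Ptgdr2, a prostaglandin receptor of ILC2 in the gate panel, was at 0 in both, while the alarmin receptor Il1rl1 stood at 1299 CPM in pGF, against 1196 CPM in SPF and the master factor Gata3 at 924 CPM in pGF, against 1357 CPM in SPF.

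Among the type 2 effector genes of ILC2, lower values in pGF outnumbered higher ones. Of 9 measured members 4 were lower in pGF and 1 was higher, and the median was -0.94. Il13, the cytokine that drives mucus production, stood at 152 CPM in pGF, against 360 CPM in SPF, from 14 cells in pGF and 11 in SPF. Thinned to 1000 UMIs, it was detected in 7 of 94 cells in pGF and 9 of 45 cells in SPF. Calca, which encodes the neuropeptide CGRP, stood at 190 CPM in pGF, against 429 CPM in SPF. Furin, a protease that matures growth factors, differed by -1.05, and Il2 by -1.49 from 18 UMIs in pGF and 25 in SPF. Il4, another type 2 cytokine, was the exception at 445 CPM in pGF, against 123 CPM in SPF, from 20 cells in pGF and 9 in SPF. Il5, the growth factor of eosinophils (-0.68), the repair ligand Areg (-0.61), Csf2 (-0.94) and Arg1 (-0.58) were lower without reaching 2-fold.

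Tnf was the furthest higher gene in ILC2, with 39 UMIs over 17 cells in pGF and none in SPF, at least 5.84-fold higher against the limit of 3 UMIs, with an exact interval of the CPM ratio from 4.53. Its 134 CPM in pGF lay under the 153 CPM that 20 UMIs reach in SPF. Of the 10 genes furthest higher, only Epc1 (193 CPM in pGF) and Phlda1 reached that level. The others passed the limits only through the larger pGF pool and were not compared at the shared level. Phlda1 stood at 190 CPM in pGF, against 30.7 CPM in SPF. The RNA-binding protein gene Cirbp was found in 31 cells in pGF and 2 in SPF, and the chromatin gene Epc1 in 25 cells in pGF and 2 in SPF. With 1 or 2 UMIs in SPF, Cirbp had a CPM ratio of 8.32 (interval 2.14 to 71.2), Epc1 of 12.6 (3.33 to 106), Cxcl3 of 19.3 (3.29 to 781), Rcbtb2 of 10.3 (1.68 to 426), and Pdk1 and Pold4 of 9.89 (1.60 to 408) each. Zswim3 and Bag3 drew 83.3% and 69.6% of their pGF UMIs from 1 cell.

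On the lower side the neutrophil chemokine Cxcl2 stood at 820 CPM in pGF ILC2, against 2484 CPM in SPF (CPM ratio 0.330, interval 0.278 to 0.391), in 39 cells in pGF and 29 in SPF. Eepd1, Morf4l2, Fes, Ezr, Canx, Tnfsf14 and Lif ranged from -1.99 to -1.35, and 82.7% of the SPF UMIs of Cxcl1 came from 1 cell. Of 8 measured receptors of ILC2, Ramp1, a part of the CGRP receptor, was higher (255 CPM in pGF, against 92.0 CPM in SPF) and the costimulator Icos lower (162 CPM in pGF, against 360 CPM in SPF). None of 6 measured identity genes was called. The T panel summed to 365 CPM in pGF, against 307 CPM in SPF, Igha to 86.2 CPM in pGF, against 368 CPM in SPF, and Car1 to 265 CPM in pGF, against 84.3 CPM in SPF. Their part in these values was not tested.

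**Figure D3:**
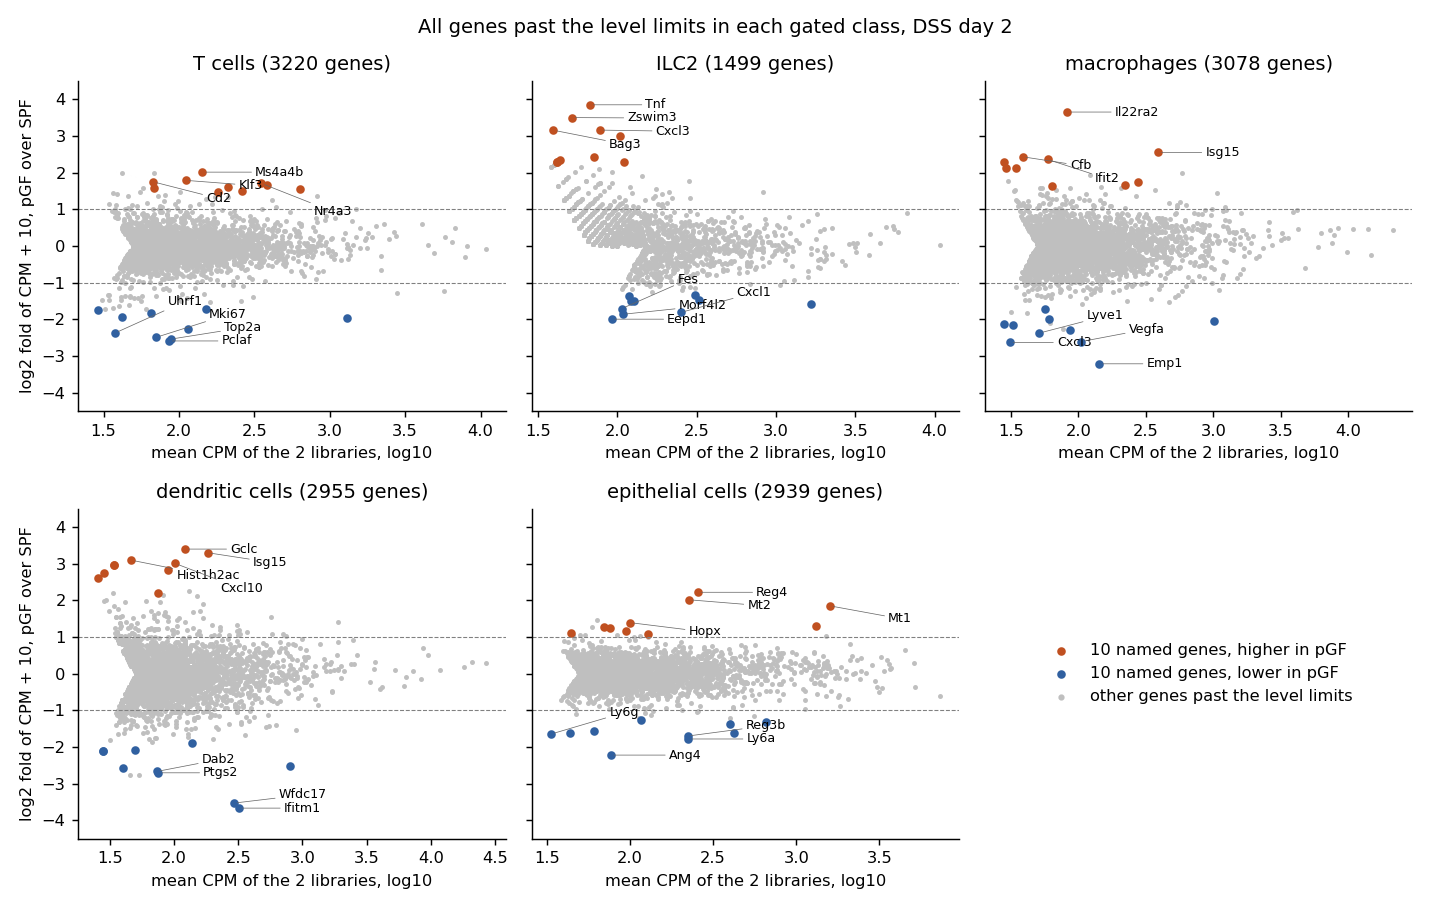
Log2 of (CPM + 10), pGF over SPF (y axis), against the log10 of the mean CPM of the 2 libraries (x axis) for every gene past the level limits in each class at DSS day 2. Coloured points are the 10 named genes in each direction and dashed lines mark 2-fold; most genes of T and epithelial cells lie between the lines, and the small ILC2 and dendritic pools spread wider.

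Epithelial cells were the deepest of the 5 classes, and few of their genes differed by 2-fold. Among those that did, Mt1, Mt2, Reg4, Zg16 and Hopx were higher in pGF, and Ang4, Reg3b, Ly6a and Cyp2c55 were lower. Of 2939 genes compared, 19 (0.646%) were higher in pGF and 19 (0.646%) lower. At the list level 0.327% of 7962 genes were higher and 0.339% lower, with a median of 0.00. Median depth was 23129 UMIs per cell in pGF and 18157.5 in SPF. The median mitochondrial share was 3.96% in pGF and 5.86% in SPF, and 45.8% of epithelial-gated barcodes in pGF and 70.7% in SPF had been over the limit, so the cells compared are the ones that passed it.

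Mt1 and Mt2, small proteins that bind zinc and copper and are induced by metals and glucocorticoids, were higher in pGF. Mt1 stood at 2501 CPM in pGF, against 686 CPM in SPF (CPM ratio 3.65, interval 3.57 to 3.72), in 1006 cells in pGF and 602 in SPF. Mt2 stood at 369 CPM in pGF, against 83.8 CPM in SPF. They were the 2 called of 10 measured glucocorticoid-responsive genes, whose median was 0.13. Both were already higher in pGF at day 0, by 2.64 for Mt1 and 3.53 for Mt2, and at day 7, by 1.38 and 2.07.

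Reg4, a lectin of deep-crypt secretory cells, stood at 428 CPM in pGF, against 84.0 CPM in SPF, from 130 cells in pGF and 45 in SPF. Hopx, a marker of crypt cells with stem cell potential, stood at 150.0 CPM in pGF, against 50.9 CPM in SPF, in 671 cells in pGF and 251 in SPF. It was the called member among 12 measured crypt and progenitor genes, whose median was 0.36; Axin2 (0.87) and Ascl2 (0.78), of the Wnt pathway, stayed under 2-fold. Hes1, the Notch target that keeps progenitors from secretory fate, was higher as well, at 134 CPM in pGF, against 54.5 CPM in SPF. Of 15 measured goblet and mucus genes, Zg16, a lectin that binds bacterial cell walls in mucus, and the kallikrein Klk1 were higher and none lower, with a median of -0.24. For Zg16, 40.2% of the SPF UMIs came from 1 cell. Muc2, the main mucin, stood at 1447 CPM in pGF, against 2182 CPM in SPF, which is under 2-fold in the other direction. Ugt1a7c, of glucuronidation (1.29), Depp1 (1.10), Mpst, of hydrogen sulfide metabolism (1.08), and Insl5, a hormone of enteroendocrine cells found in 4 cells in pGF and 1 in SPF, were the others.

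Antimicrobial and flora-responsive genes were lower in part. Of 15 measured members 5 were lower and Reg4 alone was higher, with a median of -0.49. Reg3b, a lectin that epithelium secretes in response to bacteria, stood at 99.1 CPM in pGF, against 344 CPM in SPF (CPM ratio 0.288, interval 0.274 to 0.302), from 69 cells in pGF and 102 in SPF. Duox2, an oxidase that releases hydrogen peroxide to the lumen, stood at 12.9 CPM in pGF, against 46.2 CPM in SPF, and its maturation factor Duoxa2 at 6.69 CPM in pGF, against 31.5 CPM in SPF. The protease inhibitor Slpi stood at 4.04 CPM in pGF, against 25.1 CPM in SPF. Ang4, a bactericidal ribonuclease, differed by -2.22, with 54.1% of its SPF UMIs in 1 cell. Reg3g, a close relative of Reg3b, differed by -0.61, Retnlb, a goblet defence protein, by 0.74 and Lypd8, which keeps flagellated bacteria from the surface, by 0.02.

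Genes of the injured or differentiated surface were lower too. Ly6a, or Sca-1, a mark of regenerating epithelium, stood at 95.7 CPM in pGF, against 352 CPM in SPF (CPM ratio 0.271, interval 0.259 to 0.285), in 459 cells in pGF and 480 in SPF. With the junction gene Cldn4 it made 2 lower of 13 measured wound-associated genes, whose median was -0.60. A total of 4 of 14 surface maturation genes were lower, Ly6g, Cyp2c55, Sprr2a3 and Ceacam20, with a median of -0.60 and none higher. Cyp2c55, a cytochrome of fatty acid and drug oxidation, stood at 204 CPM in pGF, against 645 CPM in SPF. Gsdmc2 and Gsdmc4, gasdermins of the surface epithelium, differed by -1.38 and -1.31, and Sprr2a2, a cornified-envelope protein, by -1.61. These are members of families of close copies, as are Sprr2a3 and the Ly6 genes, so reads may be divided among relatives. The calcium-binding S100g (-1.57) and the polarity gene Pard6b (-1.27) completed the named genes.

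None of 21 measured colonocyte transport and ketogenesis genes was called, with Car1 at 5481 CPM in pGF, against 3490 CPM in SPF and the water channel Aqp8 at -0.97. Weighting every cell equally, 4 of these 21 were lower and their median was -0.45, while it was -0.28 over summed UMIs. None of 11 measured Ahr and xenobiotic genes was called, although their median was 0.61, with the esterase Ces1g (0.91) and Aldh1a1 (0.89) nearest to 2-fold. The NF-kB feedback genes Nfkbia, at 343 CPM in pGF, against 774 CPM in SPF, and Tnfaip3, at 75.4 CPM in pGF, against 171 CPM in SPF, were the 2 lower of 10 measured. None of 14 measured interferon genes was called, with a median of -0.33, in contrast to the calls in macrophages and dendritic cells; the difference between classes was not tested. Among 10 measured chemokines Ccl20, which draws lymphocytes and dendritic cells, was higher (23.3 CPM in pGF, against 4.48 CPM in SPF) and Cxcl2 lower (11.7 CPM in pGF, against 43.0 CPM in SPF). At equal weight per cell, no member of that list was higher and 2 of 12 were lower. No call was made among the 5 measured MHC class II genes, whose median was -0.80. The T panel summed to 58.7 CPM in pGF epithelial cells, against 12.3 CPM in SPF, and Igha to 203 CPM in pGF, against 830 CPM in SPF. Their part in these values was not tested.

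**Figure D4:**
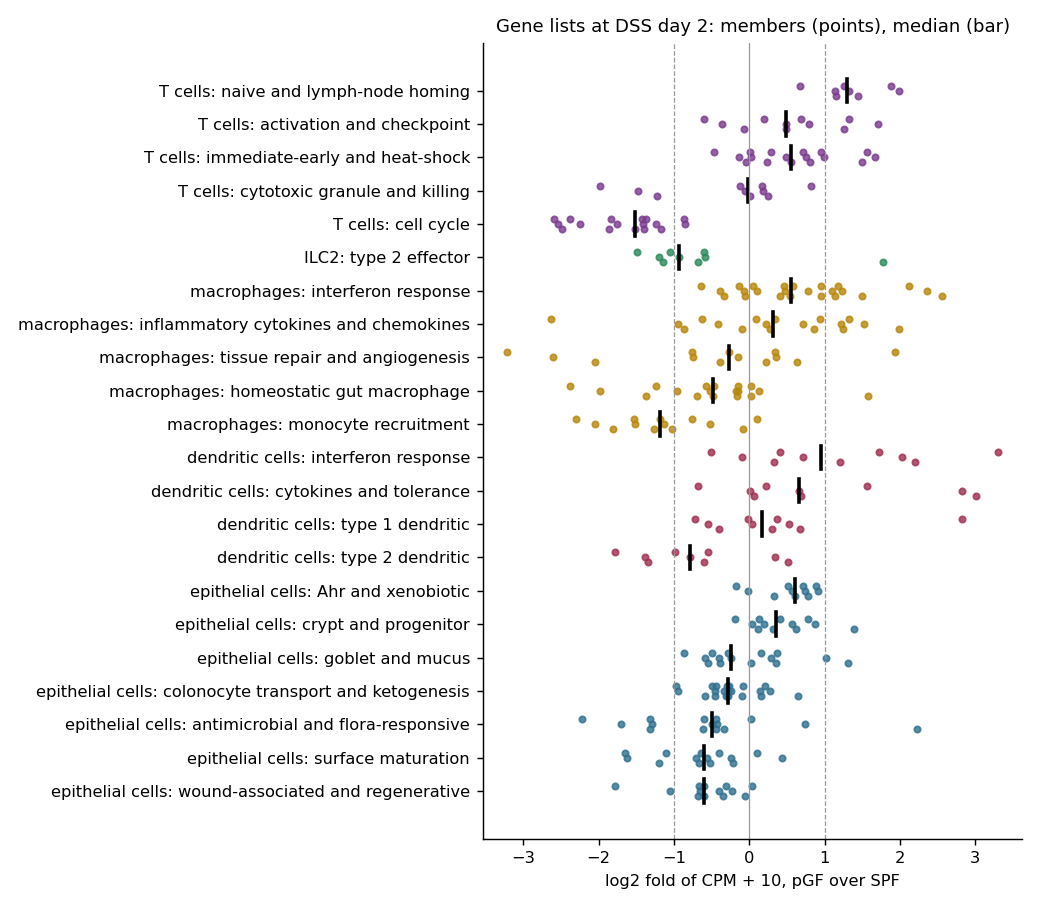
Log2 of (CPM + 10), pGF over SPF (x axis), for the measured members (points) and the median (bar) of gene lists in each class (rows) at DSS day 2; dashed lines mark 2-fold. T cell naive genes lie to the right (median 1.29) and cell-cycle genes to the left (median -1.51), and macrophage interferon genes (0.56) stand opposite to monocyte genes (-1.19).

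The other days set the epithelial differences in a sequence. Reg3b stood at 6.90 CPM in pGF, against 435 CPM in SPF at day 0, and at 712 CPM in pGF, against 19799 CPM in SPF at day 7, so pGF was lower on each day. Ly6a stood at 97.0 CPM in pGF, against 296 CPM in SPF at day 0, and at 133 CPM in pGF, against 1603 CPM in SPF at day 7. Both were therefore lower in pGF before DSS as well as after it. Reg4 differed by 0.27 at day 0 and 1.25 at day 7, and Hopx by 0.04 at day 0 and 0.39 at day 7, so at day 0 these were near equal. Ang4 differed by -1.57 at day 0, and at day 7 it stood at 99.7 CPM in pGF and was listed at 0 in SPF. Of the 10 genes furthest higher at day 2, 7 were higher at day 0 and 5 at day 7, and of the 10 furthest lower, 8 were lower at day 0 and 6 at day 7. Days 0 and 7 rest on fewer epithelial cells, 108 in pGF and 125 in SPF at day 0, and 83 in pGF and 57 in SPF at day 7.

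**Figure D5:**
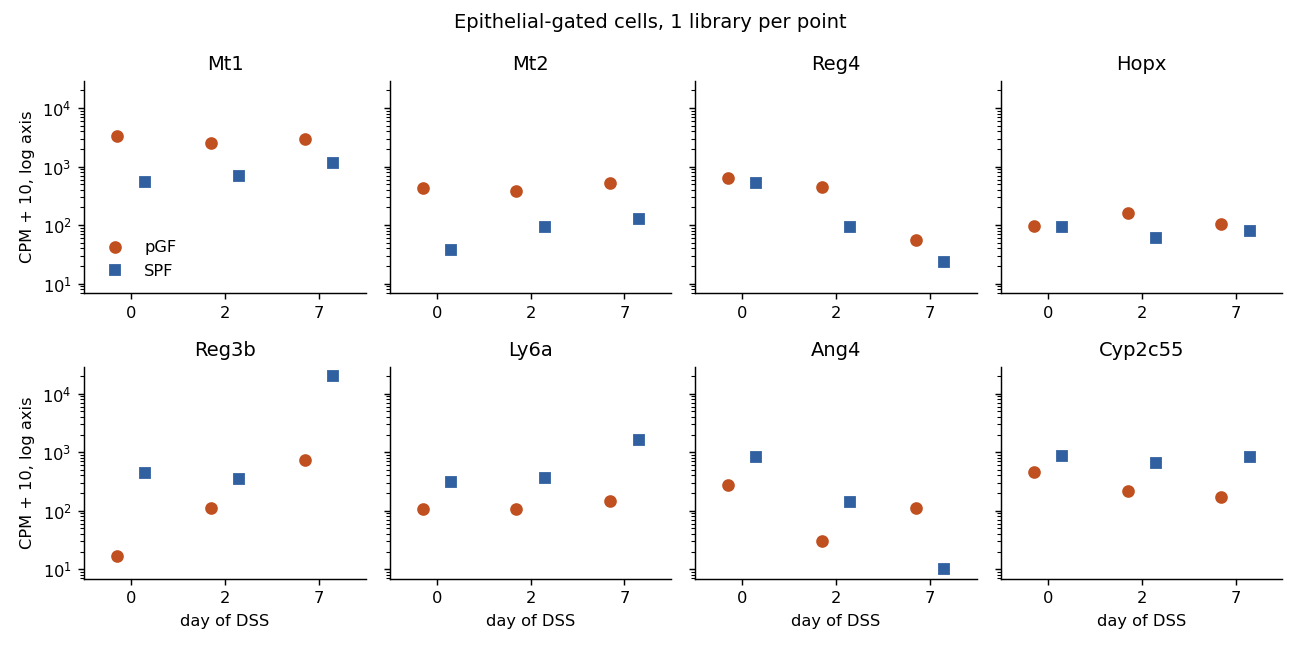
CPM + 10 on a log axis (y) in epithelial-gated cells of the pGF (circles, left) and SPF (squares, right) libraries at days 0, 2 and 7 of DSS (x), for 8 of the named genes, 1 library per point. Mt1 and Mt2 are higher in pGF and Reg3b and Ly6a lower in pGF on all 3 days, while Reg4 and Hopx differ little at day 0.

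In macrophages, 6 of the 10 genes furthest higher at day 2 were also higher at day 0 and 5 at day 7, and of the 10 furthest lower, 5 were lower at day 0 and 7 at day 7. Isg15 in macrophages differed by 2.55 at day 2, by 0.46 at day 0 and by -1.64 at day 7, so only day 7 had the opposite direction. Cfb differed by -2.78 at day 7. In dendritic cells the direction was shared by 6 and 6 of the higher genes and by 0 and 5 of the lower genes at days 0 and 7. Isg15 in dendritic cells differed by -0.36 at day 0 and -4.68 at day 7, opposite to its 3.30 at day 2. In ILC2, with 16 cells in pGF and 7 in SPF at day 0 and 85 in pGF and 15 in SPF at day 7, Il13 differed by -1.69 at day 0 and 3.29 at day 7. None of these differences between days was tested.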

How the data were processed

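A pair of libraries of CD45-sorted colon cells were compared, each a table of raw UMI counts over 32285 genes that the authors deposited as Cell Ranger 6.1.2 output, per the file headers. The submitters' processing notes name mm10, R 4.1.3 and Seurat 4.1.1. No normalised or annotated file was used, and the antigen receptor libraries were not analysed here. The members, gates and gene lists were chosen with earlier results of these data known.

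Barcodes with at least 200 genes and at most 10% mitochondrial UMIs were kept and gated on 12 marker panels. No doublet caller was run in the main analysis. UMIs were summed per class and library, scaled to CPM and compared as log2 of (CPM + 10), with no test, since each side was 1 library. Depth was 52772901 UMIs in pGF and 37169685 in SPF. Shares have exact binomial 95% intervals and CPM ratios exact conditional binomial ones, both for counting error only. Reads without replicate libraries say nothing of the spread between mice. For detection, cells were thinned to 1000 UMIs, leaving out 84 shallower T cells in pGF and 8 in SPF.

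The genes named were the 10 furthest in each direction per class with at least 50 CPM, 20 UMIs and 0.2 of the highest level among classes in that library, without gate, receptor, immunoglobulin, mitochondrial, ribosomal, haemoglobin, Y-linked and unnamed genes, and members of the 37 lists. Alternatives were a 20% or no mitochondrial limit, 500 genes, 5 panel UMIs, gates on thinned barcodes, removal of high Scrublet scores, other denominators, TMM factors (edgeR 4.0.16), a pseudocount of 1, other level limits, equal weight per cell, and subsets of the macrophage and T gates. A further alternative left receptor, immunoglobulin and mitochondrial genes out of the total. The equal weights, the absent mitochondrial limit, the equal ILC2 level, and the C1q and Cd8a subsets were added after the data had been seen. The code was tested on simulated data before use. Promoters and the motif search used RefSeq on GRCm38.p6. Python 3.11.15, scipy 1.17.1, pandas 2.3.3 and scanpy 1.11.5 were used. Some members of the lists are counted but not reported by name here.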

Additional observations from a re-analysis of the deposited data

Results flagged for a closer look

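The dendritic share had opposite directions at days 2 and 0. Its log2 ratio, pGF over SPF, was -1.93 at day 2, against 0.94 at day 0, when the class held 26 cells in pGF and 25 in SPF. The difference between the days was not tested, since each day has 1 library a side.

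The epithelial share was also flagged because its direction differed by day. Its log2 ratio was -0.77 at day 2, against 0.67 at day 0 and 1.24 at day 7. These differences were not tested either, and the mitochondrial limit removed 70.7% of the epithelial-gated barcodes of the SPF library at day 2, against 45.8% of those of the pGF library.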

How the results depend on the processing

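No paired analysis was possible because each group is 1 library, and for the same reason no replicate could be left out. With gated immune barcodes as the denominator, the log2 share ratio was 1.17 for T cells, -0.84 for ILC2, -3.07 for macrophages and -2.58 for dendritic cells. Without a mitochondrial limit it was 2.26 for T cells, -2.08 for macrophages, -0.98 for epithelial cells and 0.25 for ILC2, whose direction thereby turned. Counts of genes moved mainly with the level limit. At 10 CPM or with no limit but the UMI count, 127 genes were lower in T cells. At 10 CPM 125 genes were higher and 141 lower in macrophages. With no level limit counts were 162 higher and 154 lower in macrophages, 1149 and 486 in ILC2, and 357 and 307 in dendritic cells, and at the level shared by both libraries 25 genes were higher in ILC2. A pseudocount of 1 gave 125 lower in macrophages. With cells weighted equally, counts were 132 higher and 201 lower in macrophages, and 36 higher and 41 lower in epithelial cells. The share of higher among called genes moved from 47.5% to 59.1% in T cells under TMM scaling (median of all genes 0.06) and to 34.5% at 10 CPM, from 50.6% to 39.6% in macrophages under equal weights, and from 81.6% to 45.5% in ILC2 at the shared level. Without thinning, the difference in T cell detection was 2.16 points for Cd4 and -19.6 points for Trdc. List medians that moved were those of the T cell cycle at a pseudocount of 1 (-2.52), the macrophage monocyte genes among cells with C1q (-0.22), the dendritic glucocorticoid genes with no level limit (0.28), and the epithelial tuft and enteroendocrine genes under doublet removal (0.88) and equal weights (0.66). With cells weighted equally the median turned from -0.24 to 0.06 for epithelial goblet genes and from 0.33 to -0.14 for dendritic maturation genes, the call of Icos in ILC2 was lost, and 1 epithelial gene each of the wound and NF-kappaB lists was lower in place of 2. Named genes kept direction and a 2-fold difference in 953 values and lost that difference in 7. The losses were Morf4l2 with 5 panel UMIs (-0.95), Cst7 (0.93), Depp1 (0.98) and Mpst (0.91) under equal weights, and Chil3 (-0.28), Thbs1 (-0.77) and S100a9 among macrophages with C1q. Counted as kept were ILC2 genes under the shared level of 153 CPM, Tnf among them, which would not be compared there. Named genes had been picked for their large differences, so most were likely to stay past 2-fold. The causes of the shifts in this section were not tested. Few cells limit ILC2 and dendritic values, where 1 cell can hold most UMIs of a gene.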

Other observations

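Stress and stimulus genes were also compared in the myeloid classes. Of 17 immediate-early and heat-shock genes, 4 were higher in pGF macrophages and none was lower, with a median of 0.48. Among macrophages with 3 or more C1q UMIs 1 of 17 was higher, with a median of 0.40, and under TMM scaling 3 were. The chaperone partner Dnajb1 stood at 233 CPM in pGF, against 81.1 CPM in SPF, the chaperone Hspa1a at 865 CPM in pGF, against 395 CPM in SPF, and the immediate-early genes Ier2 and Egr1 differed by 1.06 and 1.01. In dendritic cells 2 of 17 were higher, Dnajb1 at 269 CPM in pGF, against 64.3 CPM in SPF, and Jun at 1.04. None was called among 17 in ILC2 (median 0.05) or 17 in epithelial cells (median 0.08). The adhesion molecule Icam1, on the NF-kappaB list, was higher in macrophages, at 387 CPM in pGF, against 143 CPM in SPF, and in dendritic cells, at 286 CPM in pGF, against 108 CPM in SPF. On that list Nfkb1 (-1.11) and Zc3h12a (-1.03) were lower in dendritic cells. With every cell given equal weight, the NF-kappaB list of dendritic cells had no member higher and 1 lower, and their immediate-early and heat-shock list 1 higher and 1 lower.

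Metabolic genes differed at a few members. The glycolytic enzyme Tpi1 was higher in macrophages, at 124 CPM in pGF, against 49.4 CPM in SPF, and in dendritic cells, at 108 CPM in pGF, against 31.2 CPM in SPF, where Aldoa was higher too at 1.23. Vegfa and Pfkp (-1.04) were the lower members of that list in macrophages, and in ILC2 Ero1l (-1.09) was lower and Pdk1 higher. Fabp5, which binds fatty acids, was the higher member among 13 lipid and lysosome genes of macrophages, at 227 CPM in pGF, against 67.9 CPM in SPF. With every cell given equal weight that call was lost and 1 member of the list was lower. Among glucocorticoid-responsive genes Errfi1 was higher in ILC2 (1.43) and macrophages (1.01), Mt1 in dendritic cells (1.09) and no member in T cells. Under TMM scaling the macrophage call was lost. Nuclear genes of oxidative phosphorylation gave no call in any of the 5 classes, with medians from -0.12 in T cells to 0.24 in macrophages. MHC class I genes gave none either, and MHC class II genes none in macrophages, where their median was 0.45, T cells or ILC2. The 3 interferon genes measured in ILC2 and the 9 tuft and enteroendocrine genes measured in epithelial cells held no call. These values stand without replicate libraries, and no explanation was tested.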
